A study of Mus musculus with 4 samples.

Results

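Kinesins are motor proteins that use ATP to walk along microtubules or to take them apart from their ends. The motors of the family divide the work between them: some slide and shorten the microtubules of the spindle, some carry cargo, and some act in cilia, flagella and centrioles. All of these uses meet in the testis, where germ cells divide by mitosis and meiosis and spermatids then build a flagellum and a manchette, the microtubule sleeve around the lengthening nucleus. The genes described here are the 41 rows of the count table whose symbol is Kif or Kifc followed by a digit, in either letter case, out of 22274 genes in all. Kif17, Kif3a and the genes of kinesin-binding proteins are not members by that rule.

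The libraries were made from poly(A) RNA of testes of adult mice, 2 wild-type (WT) and 2 Fam170a knockout (KO), in a study of male infertility. The genotype label of KO replicate 1 names Fam170a and that of KO replicate 2 names Fam171a. Strain, exact age, the deleted part of the gene and the number of animals per library are not given in the labels, so the p-values rest on the spread among these 4 libraries alone, and that spread may be technical. Levels below are in CPM, read counts relative to library size after TMM scaling, unless another unit is named. Library values are given as replicate 1 and replicate 2. A fold change is the log2 ratio of KO to WT, printed ± its standard error (SE).

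Total counts ran from 26029374 to 41684437 per library, and kinesin genes took 0.437% to 0.465% of them. Fam170a had 2240 and 3510 counts in the WT libraries and 1 in each KO library. Germ cell markers were abundant: sums over 8 genes each were 2259 to 2804 CPM for round spermatids, 3164 to 9012 for elongating spermatids, 3174 to 3658 for spermatocytes and 70.3 to 106 for spermatogonia. Sums for other cell types were 27.9 to 93.2 CPM for Sertoli cells (8 genes), 5.34 to 15.6 for Leydig cells (6 genes), 6.20 to 33.6 for macrophages (7 genes) and 13.7 to 26.1 for vessels and peritubular cells (5 genes), with no marker at 0 in all libraries. In such bulk RNA, fewer cells of a type and less RNA per cell cannot be told apart.

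Among the members, 2 genes are close copies, and their sequences show how little separates them. Kifc1 (ENSMUSG00000079553, GRCm38 chromosome 17, 33875659 to 33890661, reverse strand) and Kifc5b (ENSMUSG00000024301, chromosome 17, 26917091 to 26932583, forward strand) both encode minus-end-directed motors of the spindle. The longest coding sequences in GENCODE M21, 2022 and 2016 bases without the stop codon, had 1984 of 2008 aligned bases in common (98.8%), with an identical run of up to 268 bases. The stretch of 100 bases with most differences, bases 33 to 132 of the Kifc1 and 30 to 129 of the Kifc5b coding sequence, holds 5 of them, shown in capitals.
Kifc1: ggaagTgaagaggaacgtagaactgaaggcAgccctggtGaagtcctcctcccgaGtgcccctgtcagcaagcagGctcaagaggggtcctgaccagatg
Kifc5b: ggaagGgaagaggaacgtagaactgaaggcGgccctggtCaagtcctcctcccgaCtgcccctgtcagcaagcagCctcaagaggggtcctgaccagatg
Of the 50-base words in the longest Kifc1 transcript, 45.8% also occur in Kifc5b transcripts, and 40.9% of those of Kifc5b occur in Kifc1. No source used here gives the treatment of reads that match both genes, which leaves the level of each single row uncertain. The deposited table gives both rows the symbol Kifc1, and they are told apart here by their identifiers.

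Kinesin transcripts were very unequal in level. Per kilobase of the longest annotated transcript, the scale on which genes are compared here, mean levels of the 38 tested members spanned 3865-fold, from 0.123 CPM per kilobase for Kif26b to 476 ± 60.6 (SD, n = 4) for Kif2b. The 6 members highest on that scale, Kif2b, Kif9, Kif27, Kif2a, Kif3b and Kif2c, together took 74.5% of all kinesin CPM. Over all members the summed level was 4374 and 4113 CPM in WT and 4708 and 4874 in KO, so that both KO sums lay above both WT sums. Spindle and division motors held 42.2% of the summed CPM, motors of cilium, flagellum and centriole 26.8%, cargo motors 20.5% and the remaining 3 genes 10.5%. Kif2a alone held 10.4% and was placed here among those 3, not with the division motors.

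**Figure D1:**
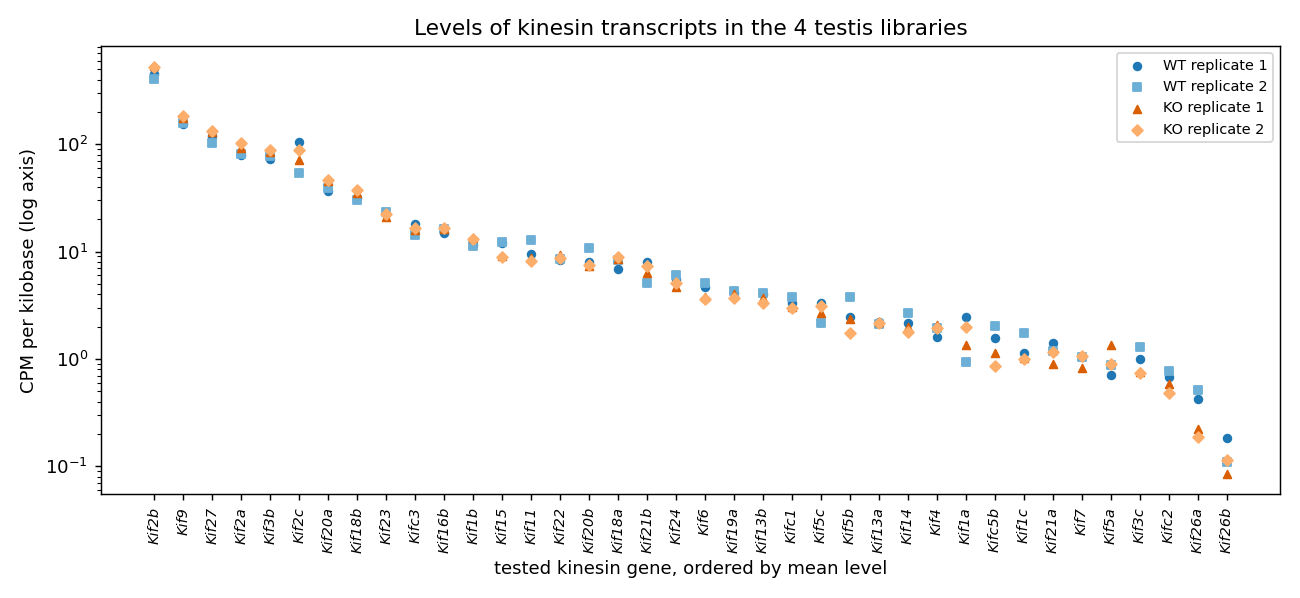
Levels of the 38 tested kinesin genes in CPM per kilobase (vertical log axis), ordered by mean level, with 1 symbol per library. Kif2b stands highest at 476 CPM per kilobase and Kif26b lowest at 0.123. The 4 libraries lie close together for most genes on this axis, while those of Kif26a, Kif1a, Kifc5b, Kif26b, Kif5b, Kif2c and Kif5a spread further apart.

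Kif2b alone took 23.7% of kinesin CPM. It encodes a kinesin-13, a motor that removes tubulin from microtubule ends, and its gene on chromosome 11 (91575315 to 91577558, reverse strand) spans the same 2244 bases as its transcript, so the annotation gives it no intron. Levels per kilobase were 452 and 402 in WT and 531 and 519 in KO. Kif9, a kinesin of the central pair of the sperm flagellum, was next at 153 and 157 CPM per kilobase in WT and 175 and 184 in KO. Kif27, a relative of Kif7 known from motile cilia, was at 120 and 102 in WT and 129 and 131 in KO on the same scale. For these 3 genes both KO libraries lay above both WT libraries, by less than the test required. So they did for 1354 of all 2312 tested genes with a mean of 100 CPM or more, the range of these 3.

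Kif2a, a kinesin-13 expressed in many tissues, had 79.4 and 81.6 CPM per kilobase in WT and 91.6 and 102 in KO. Kif3b, a motor subunit of the heterotrimeric kinesin-2 that carries intraflagellar transport trains towards the tip, had 72.1 and 78.2 in WT and 84.0 and 87.5 in KO. Kif2c, the centromeric kinesin-13 of dividing cells, had 104 and 53.5 in WT and 70.9 and 88.5 in KO. The Kif2c libraries of the genotypes therefore overlapped fully, with WT replicates at both ends.

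At the other end, 3 members were too low to test. Kif12 had 0 counts in all 4 libraries, which allows up to 0.115 CPM in the shallowest library (3 counts; counting error only). Kif28 had 1 and 0 counts in WT and 1 and 3 in KO. Kif19b, written Kif19 in the table and told from Kif19a by its description, had 2 and 8 counts in WT and 10 and 5 in KO. All 3 stayed out of every count of tested members below.

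No kinesin gene passed the test between genotypes. Of the 38 tested members 0 were higher and 0 lower in KO (edgeR, adjusted p under 0.05), where 0.908% of all 15636 tested genes were called. An unadjusted p under 0.05 was reached by 6 members with higher and 6 with lower values in KO, beside 24.6% of all tested genes (11.8% higher, 12.8% lower). With DESeq2 there were 2 calls, Kif15 and Kif26a, both lower in KO, beside 4.02% of all tested genes called lower by that tool, and with limma-voom there were 0. The median fold change of tested members was -0.06, against 0.01 for all tested genes, and 18 were positive and 20 negative.

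Groups of libraries did not overlap for 29 of the 38 members, with both KO libraries above both WT libraries for 12 and below for 17. Over all tested genes the groups did not overlap for 57.3%, at 29.4% above and 27.9% below. For 14 members the difference between the WT libraries was larger than the fitted difference between genotypes, as it was for 45.1% of all tested genes. Calls depended on a single library, for members as for all genes. Without WT replicate 1, edgeR called 5 of 39 tested members higher and 11 lower, beside 8.53% and 12.6% of all tested genes. Without WT replicate 2 it called Kif20a higher and Kif15 lower, beside 2.45% and 3.01% of all. Without KO replicate 1 or KO replicate 2 it called 0 members, beside 0.149% and 0.131% of all tested genes in both directions.

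**Figure D2:**
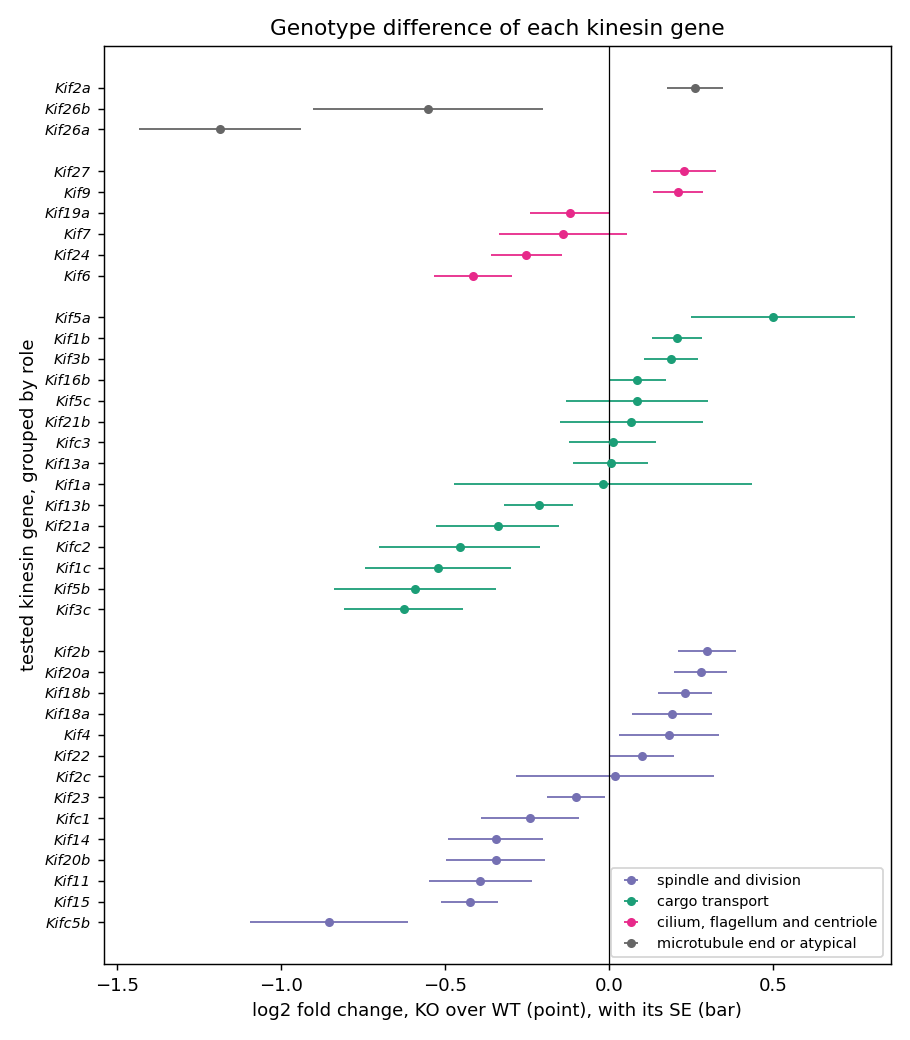
Fold changes of the 38 tested kinesin genes, KO over WT on the log2 scale (horizontal axis), as points with bars of 1 SE, grouped by role and coloured by it. Each role holds genes on both sides of 0, from -1.18 for Kif26a to 0.50 for Kif5a.

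Spindle and division genes lay on both sides of 0, 7 positive and 7 negative with a median of -0.04, and the negative ones are given first. Kif15, which helps to hold the spindle poles apart, had the smallest p of all members. It was at 57.8 and 59.8 CPM in WT and 44.1 and 43.6 in KO, a fold change of -0.42 ± 0.09 (edgeR adjusted p = 0.0907). The groups were well separated, and with DESeq2 its adjusted p was 0.0156. Kif11, the motor that pushes the poles apart, was at 45.4 and 61.5 CPM in WT and 41.8 and 39.7 in KO, a fold change of -0.39 ± 0.16. WT replicate 2 stood above the other 3 libraries, and without WT replicate 1 its fold change was -0.65, a call, against -0.16 without WT replicate 2.

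Kif20b, a motor of late division, had the same shape at 44.9 and 59.9 CPM in WT and 40.6 and 41.9 in KO (-0.35 ± 0.15). Kif14, which works with citron kinase in cytokinesis, was at 19.2 and 23.7 CPM in WT and 17.8 and 16.1 in KO (-0.35 ± 0.15). Both had the highest value in WT replicate 2, and among the alternatives tried both were called only with WT replicate 1 left out. Kif23, a subunit of centralspindlin at the midzone and in the bridges between germ cells, was at 76.7 and 80.2 CPM in WT and 70.7 and 75.8 in KO (-0.10 ± 0.09). Its genotypes nearly touched.

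For the copies Kifc1 and Kifc5b, both rows were lower in KO. Kifc5b was at 4.11 and 5.31 CPM in WT and 2.98 and 2.27 in KO, a fold change of -0.85 ± 0.24 (edgeR adjusted p = 0.125). Kifc1, which in rat spermatids is also found at the acrosome and nucleus, was at 7.80 and 8.97 CPM in WT and 7.15 and 7.07 in KO (-0.24 ± 0.15). Summed over the pair, levels were 11.9 and 14.3 CPM in WT and 10.1 and 9.34 in KO, a log2 ratio of -0.43 with no test. The sum does not depend on how shared reads were divided only if each such read was counted once. The KO libraries lay below the WT libraries for each row and for the sum.

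The positive fold changes of this role were led by 3 genes. Kif2b was at 1015 and 902 CPM in WT and 1193 and 1166 in KO, a fold change of 0.30 ± 0.09 (edgeR adjusted p = 0.130). Kif20a, which brings the chromosomal passenger complex to the central spindle, was at 133 and 144 CPM in WT and 167 and 169 in KO (0.28 ± 0.08, edgeR adjusted p = 0.129). Kif18b, which shortens microtubules at their plus ends, was at 105 and 100 CPM in WT and 117 and 125 in KO (0.23 ± 0.08). In all 3 genes both KO libraries lay above both WT libraries. The same held for 1354 of all 2312 tested genes with a mean of 100 CPM or more, as these 3 have.

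The remaining division motors differed less. Kif18a, which damps chromosome movement at metaphase and is needed for male fertility in mice, was at 44.8 and 54.5 CPM in WT and 55.2 and 58.4 in KO (0.19 ± 0.12). The chromosome-arm motors Kif22 and Kif4 had fold changes of 0.10 ± 0.10 and 0.18 ± 0.15. Kif22 had 29.8 and 30.3 CPM in WT and 33.0 and 31.3 in KO, while Kif4 had 7.95 and 9.60 in WT and 10.4 and 9.60 in KO, with groups that overlapped. Kif2c was at 0.02 ± 0.30. Of the 14 genes of this role, 3 in each direction had an unadjusted p under 0.05, beside 11.8% higher and 12.8% lower over all tested genes.

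**Figure D3:**
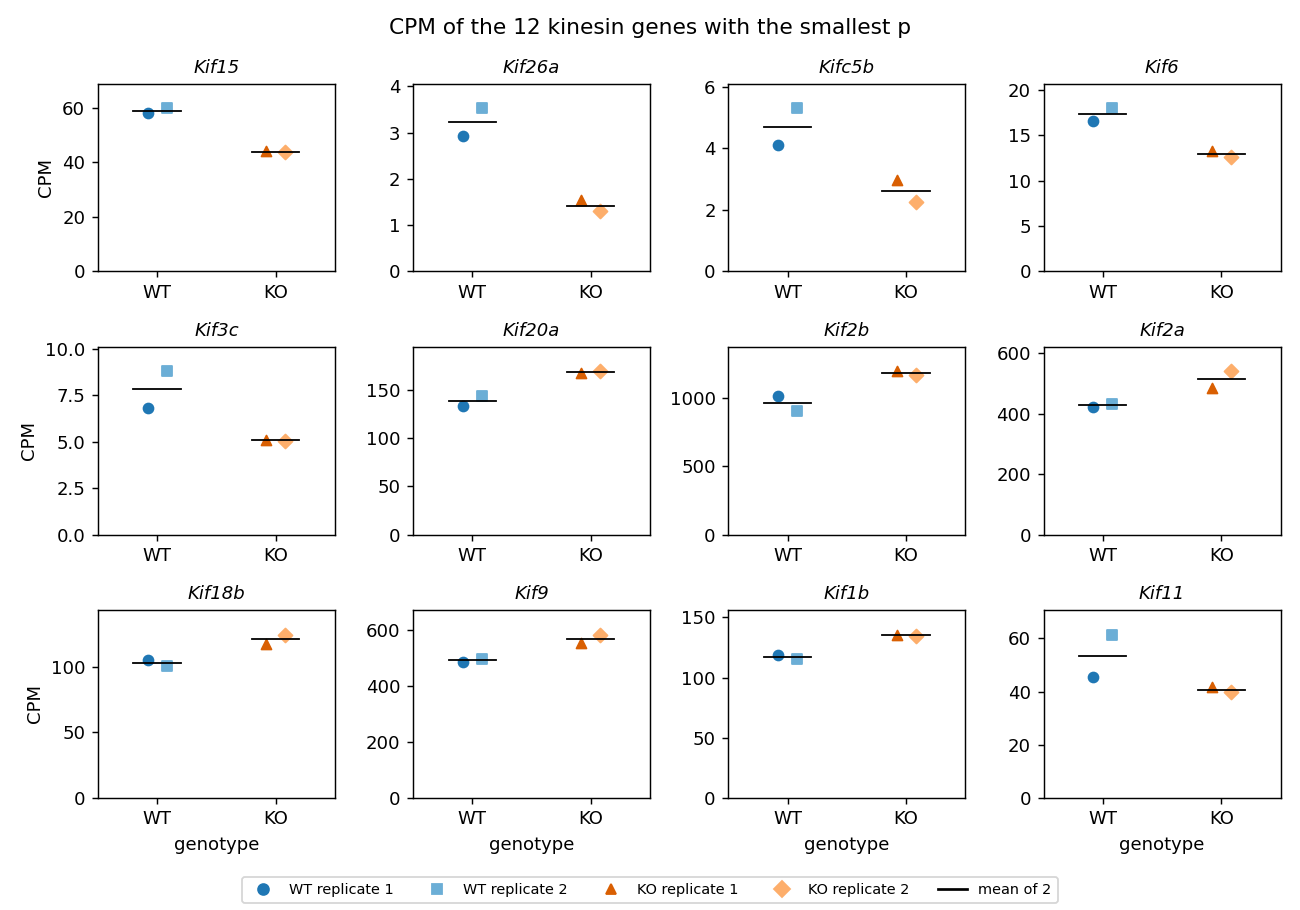
CPM (vertical axis from 0) of the 12 kinesin genes with the smallest p, by genotype, with 1 symbol per library and a line at the mean of 2. Of these, 6 lie lower in KO, among them Kif15 and Kif26a, and 6 lie higher, among them Kif2b and Kif20a. In all 12 the libraries of the genotypes do not overlap, but the genes were picked by p in these same libraries. Over all tested genes the groups do not overlap for 57.3%.

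Promoter sequence was read for the division motors because many genes of mitosis carry the CHR, an element bound by the complexes that time their transcription through the cell cycle. RefSeq promoters on GRCm38.p6 were matched by symbol for 31 of the 41 members, taking the first start listed for each gene. In the 250 bases before the start, the CHR letters TTTGAA stood on either strand in 7 of 31 members (22.6%), against 16.3% of 27025 promoters of the same length. They were present in 5 of 13 matched division motors, namely Kif2c, Kif15, Kif11, Kif22 and Kif14, and in 2 of 18 other members. CCAAT, the box bound by NF-Y, stood in 48.4% of members and 34.5% of all promoters. The CRE letters TGACGTCA stood in 1 member (Kif5c; 1.62% of all promoters), and the letters GTTGCC of an X-box half-site in 16.1% of members and 10.5% of all.

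The 150 bases before the start are shown for a pair of negative and a pair of positive genes, as transcribed, with matches to CHR or CCAAT on either strand in capitals. In Kif15 (chr9:122950931-122951080, forward strand) and Kif11 (chr19:37376232-37376381, forward strand) the CHR lies just before the RefSeq start. GENCODE M21 starts the Kif15 gene earlier, at 122951046, so that on that annotation the Kif15 match lies inside the gene. Kif2b (chr11:91577556-91577705, reverse strand) holds a CCAAT box, and Kif9 (chr9:110476808-110476957, forward strand) holds none of the searched letters in this window.
Kif15: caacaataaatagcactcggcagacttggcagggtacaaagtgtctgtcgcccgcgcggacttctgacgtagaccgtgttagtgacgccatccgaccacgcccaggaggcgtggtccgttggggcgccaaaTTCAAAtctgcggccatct
Kif11: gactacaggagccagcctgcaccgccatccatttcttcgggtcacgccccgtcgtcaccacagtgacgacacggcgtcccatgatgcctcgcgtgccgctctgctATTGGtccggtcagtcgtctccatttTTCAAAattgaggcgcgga
Kif2b: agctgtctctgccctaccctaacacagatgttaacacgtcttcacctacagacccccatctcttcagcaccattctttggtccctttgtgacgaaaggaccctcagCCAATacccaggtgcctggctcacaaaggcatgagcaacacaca
Kif9: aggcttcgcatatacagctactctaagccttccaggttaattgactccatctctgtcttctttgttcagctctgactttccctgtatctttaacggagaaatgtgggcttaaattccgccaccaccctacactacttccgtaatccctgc
A match describes these letters and is not a measured binding site. Of the 7 members with the CHR letters, Kif27, Kif2c and Kif22 had positive fold changes and Kif15, Kif11, Kif14 and Kif26b negative ones. The division motors Kif20b, Kif23, Kifc1 and Kifc5b, with negative fold changes, lacked the letters in the 250 bases searched.

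Motors of cilium, flagellum and centriole also lay on both sides. Kif9 was at 487 and 499 CPM in WT and 556 and 585 in KO, a fold change of 0.21 ± 0.08 (edgeR adjusted p = 0.172). Kif27 was at 613 and 525 CPM in WT and 659 and 673 in KO (0.23 ± 0.10). Kif6, the other kinesin-9 of the mouse and known from cilia of the brain ventricles, had the opposite sign, at 16.59 and 17.998 CPM in WT and 13.3 and 12.7 in KO (-0.41 ± 0.12, edgeR adjusted p = 0.127). Per kilobase the libraries held 153 to 184 CPM for Kif9 and 3.59 to 5.10 CPM for Kif6.

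Kif24, which acts on the mother centriole, was at 30.9 and 34.1 CPM in WT and 26.3 and 28.3 in KO (-0.25 ± 0.11). Kif19a, which trims microtubules at ciliary tips, was at 14.0 and 14.9 CPM in WT and 13.8 and 12.8 in KO (-0.12 ± 0.12). Kif7, the Hedgehog regulator at the ciliary tip, was at 4.72 and 4.79 CPM in WT and 3.79 and 4.82 in KO (-0.14 ± 0.19). The genotypes of Kif7 overlapped, and those of Kif19a were separated by less than 1 CPM. Of the 6 tested genes of this role, Kif9 and Kif6 reached an unadjusted p under 0.05, beside 24.6% of all tested genes.

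Among cargo motors the kinesin-1 heavy chains, the classical carriers of vesicles and mitochondria, did not move alike. Kif5b, the chain found in most tissues, was at 14.8 and 22.5 CPM in WT and 14.3 and 10.5 in KO (-0.59 ± 0.25, edgeR adjusted p = 0.211). Kif5a, a mainly neuronal chain, was at 4.46 and 5.52 CPM in WT and 8.55 and 5.64 in KO, the largest positive fold change of the family at 0.50 ± 0.25. KO replicate 1 alone stood clear of the rest. Kif5c, also mainly neuronal, was at 22.8 and 14.9 CPM in WT and 18.5 and 21.4 in KO (0.08 ± 0.22), with WT libraries at both ends.

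Kinesin-2 genes were high for Kif3b and low for Kif3c. Kif3b was at 406 and 441 CPM in WT and 473 and 493 in KO (0.19 ± 0.08). Kif3c, a subunit best known from neurons, was at 6.84 and 8.79 CPM in WT and 5.11 and 5.05 in KO (-0.63 ± 0.18, edgeR adjusted p = 0.128). The exons of Kif3c overlap 2617 bases of the antisense transcript 1110002L01Rik, and whether counting used strand is not given, so its level is uncertain.

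The kinesin-3 motors of vesicles and endosomes had mostly small differences. Kif1b was at 119 and 116 CPM in WT and 136 and 135 in KO (0.21 ± 0.08, edgeR adjusted p = 0.176). Kif1c was at 7.64 and 11.6 CPM in WT and 6.83 and 6.69 in KO (-0.52 ± 0.22). Kif1a, the carrier of synaptic vesicle precursors, had the widest spread of any tested member between WT libraries, at 20.4 and 7.61 CPM, with 11.1 and 16.3 in KO (-0.02 ± 0.45). Its sign depended on 1 library, at 0.79 without WT replicate 1 and -0.58 without WT replicate 2.

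The endosomal motor Kif16b was at 94.4 and 104 CPM in WT and 104 and 107 in KO (0.09 ± 0.09). Kif13a, a carrier of mannose-6-phosphate receptors, varied least, with 14.6 to 15.3 CPM over all libraries (0.01 ± 0.11). Its relative Kif13b was at 35.4 and 36.6 CPM in WT and 32.8 and 29.3 in KO (-0.21 ± 0.11). Kif21a and Kif21b, kinesin-4 motors that restrain microtubule growth, had fold changes of -0.34 ± 0.19 and 0.07 ± 0.22. Kif21a was at 9.14 and 7.69 CPM in WT and 5.81 and 7.45 in KO, whereas Kif21b was at 73.8 and 47.0 in WT and 58.0 and 68.4 in KO. Both were highest in WT replicate 1.

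Of the minus-end motors of this role, Kifc3, known from cell junctions and the Golgi, was at 60.9 and 48.2 CPM in WT and 53.6 and 56.3 in KO (0.01 ± 0.13). Kifc2 was at 2.19 and 2.49 CPM in WT and 1.87 and 1.56 in KO (-0.45 ± 0.25). Kifc3 overlapped between genotypes and Kifc2 did not. Over the 15 tested cargo motors 8 fold changes were positive and 7 negative with a median of 0.01. Kif1b and Kif3c were the only ones at an unadjusted p under 0.05, beside 24.6% of all tested genes.

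The atypical kinesin Kif26a had the largest fold change of the family. It lacks ATP-driven movement and is known to restrain GDNF-Ret signalling in nerve cells of the mouse gut. Levels were 2.92 and 3.53 CPM in WT and 1.55 and 1.302 in KO, from 76 and 135 counts and 53 and 51 counts. The fold change was -1.18 ± 0.25 (edgeR adjusted p = 0.0911), and with DESeq2 the adjusted p was 0.0285. Its relative Kif26b was at 2.54 and 1.52 CPM in WT and 1.17 and 1.56 in KO (-0.55 ± 0.35), with genotypes that overlapped. Kif2a, a kinesin-13, was grouped with them here and not counted among the division motors. It was at 421 and 433 CPM in WT and 486 and 539 in KO (0.26 ± 0.09, edgeR adjusted p = 0.149).

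Fold changes went with level. All 10 tested members with a mean of 100 CPM or more had positive fold changes, with a median of 0.22, but 84.0% of all 2312 tested genes at that level were positive too, with a median of 0.15. Between 10 and 100 CPM, 6 of 17 members were positive, with a median of -0.12, against 49.8% and a median of 0.00 over all tested genes there. Below 10 CPM, 2 of 11 were positive (Kif5a and Kif4), with a median of -0.45, against 41.8% and a median of -0.11. When libraries were scaled by total counts, the median over all tested genes was -0.10 in place of 0.01. Under that scaling 8 of the 10 abundant members stayed positive, beside 62.2% of all tested genes at that level. At middle levels 1 of the 17 was positive, beside 32.6% of all tested genes there.

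**Figure D4:**
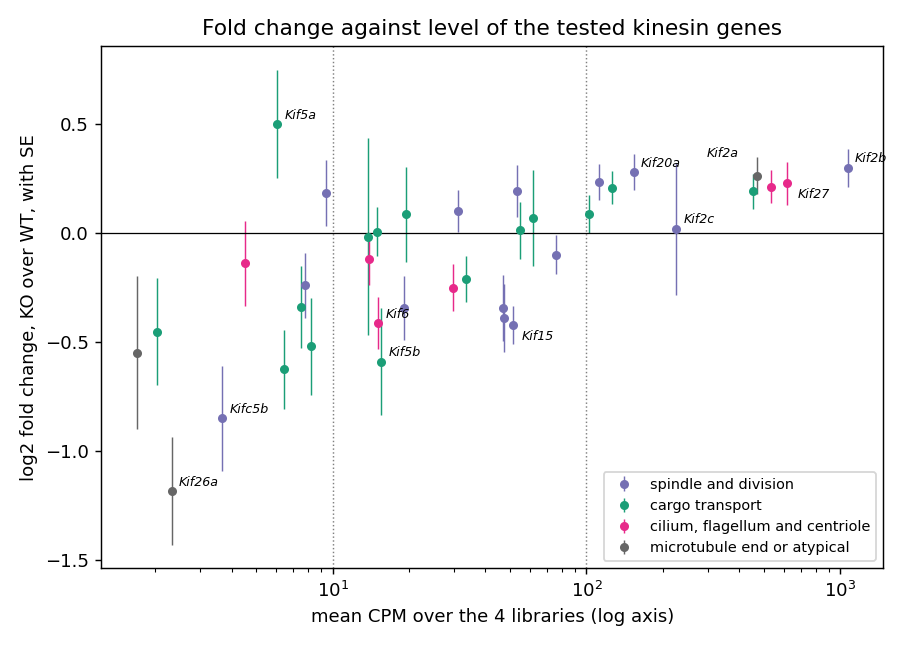
Fold change with its SE, KO over WT on the log2 scale (vertical axis), against mean CPM over the 4 libraries (horizontal log axis), for 38 kinesin genes coloured by role. Dotted lines mark 10 and 100 CPM, and all 10 genes to the right of the second line lie above 0, as do 84.0% of all tested genes at that level.

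Levels of several members ranked over the 4 libraries as sums of germ cell markers did, a pattern seen in these data and described here without a test. The elongating spermatid sum was 9012 CPM in WT replicate 1, 6566 in KO replicate 2, 4030 in KO replicate 1 and 3164 in WT replicate 2. Kif2c, Kif1a, Kif21b, Kif5c and Kifc3 had the same order, 5 of 38 members (13.2%) against 6.69% of all tested genes, as did all 8 elongating spermatid markers. In each of these 5 genes the WT libraries stood at both ends. Among the 8 elongating spermatid markers 0 were called, with a median of -0.20 (edgeR, 0 in either direction at an unadjusted p under 0.05), and none of the 5 kinesin genes was called either. The part of these cells in the kinesin values was not tested.

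A larger group ranked as the spermatogonial sum, which was 106 and 83.3 CPM in WT replicates 2 and 1 and 74.1 and 70.3 in KO replicates 1 and 2. Kif15, Kif26a, Kifc5b, Kif3c, Kif6, Kif5b, Kif11, Kif1c, Kif14, Kif13b, Kifc2, Kifc1 and Kif19a had that order, 13 of 38 members (34.2%) against 13.1% of all tested genes. Of the single spermatogonial markers 4 of 8 had it. So did 5 of 8 spermatocyte markers, Sycp1, Sycp3, Hormad1, Spo11 and Piwil1, while the summed spermatocyte level, most of it Ybx2 and Pgk2, ranked from WT replicate 1 through KO replicates 2 and 1 to WT replicate 2. Among the 8 spermatocyte markers 1, Piwil1, was called lower, and their median was -0.35. An unadjusted p under 0.05 (edgeR) was reached by 4 of them, with lower values in KO, beside 12.8% of all tested genes. The vessel and peritubular sum, at 26.1 and 18.3 CPM in WT and 13.9 and 13.7 in KO in the same order of libraries, ranked likewise, though 1 of its 5 genes did singly. Among 8 spermatogonial markers 1, Id4, was called lower (edgeR adjusted p = 0.04998, at the threshold) and their median was -0.55. Over all tested genes 0.454% were called lower. At an unadjusted p under 0.05, 3 of these 8 markers were lower, beside 12.8% of all tested genes. Among 5 vessel and peritubular markers 0 were called with a median of -0.68 (edgeR). Of those 5, 3 were lower with unadjusted p under 0.05, beside 12.8% of all tested genes. The part of these cells in the kinesin values was not tested.

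The round spermatid sum was 2804 and 2741 CPM in KO replicates 2 and 1 and 2264 and 2259 in WT replicates 2 and 1. Kif20a, Kif2a, Kif9, Kif3b, Kif18a and Kif16b had that order, 6 of 38 members (15.8%) against 7.82% of all tested genes, as did 2 of the 8 single markers. All 8 markers had positive fold changes, with a median of 0.26, and the 6 kinesin genes ran from 0.09 for Kif16b to 0.28 for Kif20a. Mean levels of the markers ran from 94.2 CPM for Catsper3 to 757 for Lrrc34. Of all tested genes at 100 CPM or more, 84.0% were positive too, with a median of 0.15. None of the 8 round spermatid markers was called (edgeR, 7 higher at an unadjusted p under 0.05, beside 11.8% of all tested genes). The part of round spermatid abundance in these values was not tested. For Sertoli cells, Leydig cells and macrophages 0 markers were called in either direction (edgeR), with medians of -0.77 over 7, -0.88 over 6 and 0.999 over 7 tested genes. An unadjusted p under 0.05 was reached by 2 Sertoli and 2 Leydig markers, lower in KO, and by 1 macrophage marker, higher. Over all tested genes the shares were 12.8% lower and 11.8% higher. Their sums ranked over the libraries as 1 member, Kif21a, did for Sertoli cells and as 0 members did for the other two.

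**Figure D5:**
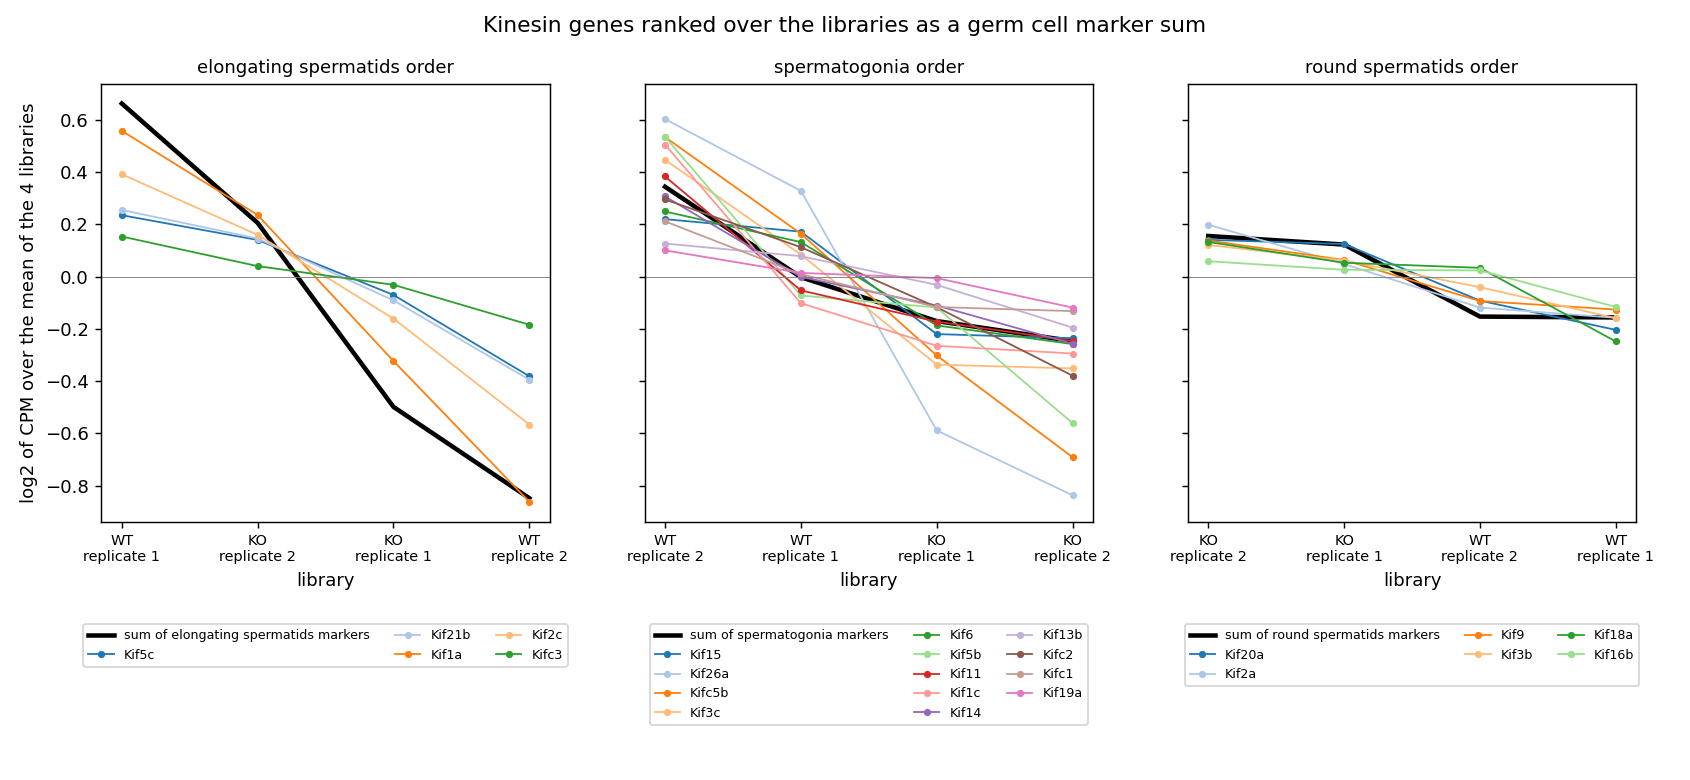
Log2 of CPM over the mean of the 4 libraries (vertical axis) for kinesin genes (coloured lines) that rank over the libraries as a marker sum does (black line), with libraries placed in the order of that sum. The elongating spermatid panel holds 5 genes with the WT libraries at both ends, the spermatogonial panel 13 genes highest in WT replicate 2, and the round spermatid panel 6 genes highest in KO replicate 2.

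Partners of these motors were mixed as well. Of 27 tested light chains and cargo adaptors 0 were called (edgeR) and the median was 0.00. An unadjusted p under 0.05 was reached by 3 higher and 5 lower, beside 11.8% and 12.8% of all tested genes. Kifap3, the non-motor subunit of the kinesin-2 that holds Kif3b, was at 479 and 440 CPM in WT and 488 and 515 in KO (0.13 ± 0.08). Light chains of kinesin-1 were at -0.41 ± 0.16 for Klc1, 0.01 ± 0.08 for Klc2, -0.08 ± 0.36 for Klc3, which is known from sperm tail mitochondria, and 0.14 ± 0.11 for Klc4. The 4 smallest p of the list belonged to Ppfia2 (0.64 ± 0.11), Ppfia1 (-0.65 ± 0.17), Hook3 (-0.45 ± 0.16) and Arl8a (-1.004 ± 0.37).

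Of 23 partners of division kinesins 0 were called (edgeR), with a median of -0.05. An unadjusted p under 0.05 was reached by 1 higher and 6 lower, beside 11.8% and 12.8% of all tested genes. Of the chromosomal passenger complex, which Kif20a carries, Cdca8 and Aurkb had fold changes of -0.66 ± 0.13 and -0.72 ± 0.14, Incenp 0.10 ± 0.08 and Birc5 0.01 ± 0.11, beside 0.28 ± 0.08 for Kif20a. Cdca8 was at 37.6 and 45.3 CPM in WT and 27.4 and 25.2 in KO. Aurkb was at 9.26 and 9.99 CPM in WT and 5.78 and 5.95 in KO. Racgap1, the partner of Kif23 in centralspindlin, was at -0.03 ± 0.09. Ndc80 and Numa1, for kinetochores and spindle poles, were at -0.54 ± 0.12 and -0.49 ± 0.11.

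Cytoplasmic dynein carries cargo the other way along the microtubule, and 1 of 20 tested dynein 1 and dynactin genes rose and 0 fell, where 0.454% of all tested genes were called higher. At an unadjusted p under 0.05 there were 5 higher and 1 lower, beside 11.8% and 12.8% of all. The light chain gene Dynlt1b, listed as Dynlt1, was at 452 and 443 CPM in WT and 732 and 752 in KO, a fold change of 0.73 ± 0.07 (edgeR adjusted p = 0.0235). Mouse Dynlt1b belongs to a cluster of close copies, so its separate level is uncertain. The list's median was -0.03, with Dynlrb2 at 0.48 ± 0.14, Dctn1 at 0.24 ± 0.08 and Dync1i1 at -0.49 ± 0.19. Of 11 tested Hedgehog pathway genes around Kif7 0 were called (edgeR; unadjusted p under 0.05 in 2 higher, 1 lower) and the median was -0.27. In that list Ptch1 was at -1.24 ± 0.39, Stk36, the kinase that binds Kif27, at 0.23 ± 0.09 and Dhh at -0.77 ± 0.31.

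Several members share exons with genes on the opposite strand, which unstranded counting cannot tell apart. Kif20a overlaps 1271 exon bases of Cdc23, whose own level was 13.4 to 14.7 CPM with a fold change of -0.09. Kif2a overlaps 1229 of Dimt1 (6.18 to 7.22 CPM, 0.11) and Kif4 overlaps 832 of Pdzd11 (0.680 to 0.817 CPM, 0.13). Kif7, Kif26b, Kif27, Kif5b, Kif6 and Kif22 overlap annotated antisense transcripts in 877, 909, 332, 182, 62 and 96 bases, respectively, for the longest overlap of each. The levels of these genes are uncertain to that extent.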

How the data were processed

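Per the labels' protocols, mRNA captured on beads was copied into full-length cDNA and PCR-amplified. Tools named by the submitters' processing notes, with no role for any, are RSEM, StringTie 1.3.1, HISAT2 2.1.0, Bowtie2 2.2.8 and fastp 0.18.0. Not given in the sources used here are genome build, annotation and strandedness. The deposited values are whole-number read counts per gene, not normalized. Each column was assigned to its sample by the genotype and number in its name.

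Gene names, lengths and positions came from GENCODE M21 (GRCm38), which with a table of gene names matched 22219 of 22274 identifiers, and promoters from RefSeq. All counts were tested in edgeR 4.0.16 (R 4.3.3) after filterByExpr (minimum count 10, total 15) left 15636 genes, with TMM factors of 0.940 to 1.08, the two-sided quasi-likelihood test with genotype as its only term, and Benjamini-Hochberg adjustment over all tested genes. The code was tested on simulated data. Alternatives used DESeq2 1.42.0, limma-voom (limma 3.58.1), other scalings and filters, replicate blocks, and each library left out. All tested members are named, with every library's value where the naming rule asked for it (12 smallest p, 6 highest levels, the copies, highest of each role) and, beyond that rule, for the others. Partner lists name the 4 genes with smallest p, except for results not reported here; Klc1 to Klc4, Kifap3, Racgap1, Incenp and Birc5 were added outside that rule, after values were seen. Members and lists were chosen with earlier results of these data known.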

Additional observations from a re-analysis of the deposited data

How the results depend on the processing

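Of the 38 tested kinesin genes, 28 kept the sign of their fold change under all 12 alternatives, and 10 (Kif13a, Kif16b, Kif1a, Kif21b, Kif22, Kif2c, Kif4, Kif5c, Kif7 and Kifc3) changed it under at least 1. Under DESeq2 size factors, limma-voom and a filter of 1 CPM, counts stayed within 1.5 times of those reported. With scaling by total counts, 32 genes were called higher, and the kinesin median was -0.16 beside -0.10 over all tested genes. An unadjusted p under 0.05 was then reached by 1 kinesin gene above and 12 below, beside 752 and 2552 of all 15636 tested genes. Without a filter 171 genes were called higher and 280 lower, and the kinesin median was -0.0031 over 40 genes. There 10 kinesin genes were lower at an unadjusted p under 0.05, beside 2198 of all 19616 tested genes. DESeq2 called 383 genes higher and 628 lower, 2 of the latter kinesin genes. With it 3 kinesin genes were higher at an unadjusted p under 0.05, beside 1265 of all 15636 tested genes. The cause was not tested.

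Leaving out 1 library at a time gave 13 to 1374 genes higher and 8 to 2034 lower, 0 to 5 kinesin genes called higher and 0 to 11 lower, 1 to 7 with higher and 2 to 12 with lower values (unadjusted p under 0.05), and medians of -0.14 to 0.0057. The largest numbers came without WT replicate 1, where the lone WT library is assumed to vary like the KO pair. There Kif2b, Kif27, Kif2c, Kif21b and Kif1a were called higher, Kif1a with a reversed sign at 0.79 (its values without 1 library ran from -0.58 to 0.79), and Kif11, Kif14, Kif15, Kif1c, Kif20b, Kif24, Kif26a, Kif3c, Kif5b, Kif6 and Kifc5b lower.

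Shared replicate numbers were tried as pairs. With a replicate block 6 genes were called higher and 3 lower, and no kinesin gene was called. At an unadjusted p under 0.05, 3 kinesin genes were higher, beside 1194 of all 15636 tested genes. Deviations from the group means correlated at -0.24 between same-numbered libraries. With 2 libraries per genotype the crossed pairs give the same value with the opposite sign, 0.24. The correlation therefore cannot tell whether the numbers pair the samples. A crossed replicate block, chosen after seeing the data, called 298 genes higher and 604 lower, 3 of the latter kinesin genes. With that block 10 kinesin genes were lower at an unadjusted p under 0.05, beside 2374 of all 15636 tested genes. Depth limits the lowest members most: Kif26a rests on 51 to 135 counts per library.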
